A study of Homo sapiens with 24 samples.

Results

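Amino acid transporters of the plasma membrane were followed after 8 h of TAK-981 and at 0 h in 4 human lines of B-cell lymphoma. Of 58676 gene IDs in the deposited count table, 10 were chosen by name: SLC38A1, SLC38A2 and SLC38A5, SLC7A1, SLC7A5 and SLC7A11, SLC3A2, SLC1A4 and SLC1A5, and SLC43A1. All 10 were found, and all 10 were among the 17327 genes that passed the filter on low counts. The lowest count of any of them in any library was 211, so none entered through a single group with high values.

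Amino acids cross the cell membrane only through carrier proteins, and growing lymphocytes depend on them for protein synthesis, for glutamine as a fuel and for cystine to make glutathione. Sodium-coupled carriers such as the SLC38 proteins load the cell with small neutral amino acids. Exchangers such as SLC7A5, SLC1A4 and SLC1A5 then trade those for other amino acids, among them leucine, which is sensed by the kinase complex mTORC1. SLC3A2, also known as CD98, carries no amino acid itself and is the shared heavy chain that brings SLC7A5, SLC7A11 and other light chains to the cell surface. When amino acids run short, the transcription factor ATF4 raises the mRNA of many of these carriers.

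OCI-LY3, OCI-LY19, U-2932 and SU-DHL-10 cells after 8 h of TAK-981 were each set against the same line at 0 h, with 2 replicates per group and 16 RNA libraries in all. TAK-981 is a small molecule that blocks the SUMO-activating enzyme, and SUMO is a small ubiquitin-like protein attached to other proteins. The labels describe every line as diffuse large B-cell lymphoma of genotype WT and give no dose. In the series text a line SU-DHL4 stands in the place of SU-DHL-10, and the sample labels are followed here. No vehicle-treated cells at 8 h were analysed, so time in culture is part of every 8 h value and cannot be told apart from TAK-981. The labels do not say whether replicates were separate cultures, so the p-values take in only the variation between these libraries, some or all of which may be technical.

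Gene counts summed to 16770677 to 24694466 per library. The 6 B-cell markers together stood at 1504 to 3630 CPM at 8 h and 1533 to 3920 CPM at 0 h, and each was above 1 CPM in every library. CPM is the count of a gene relative to the total of its library, here with totals scaled by TMM, a method that takes most genes to be unchanged. Among these, CD79B, CD79A and CD22 fell across lines, CD79B by 1.25 ± 0.11 on the log2 scale (with libraries scaled to added spike-in RNAs, CD79A and CD22 were not called), and their part in the transporter changes was not tested. Summed markers of T and NK cells did not exceed 2.78 CPM at 8 h or 4.48 CPM at 0 h, with CD3D at 0, and those of monocytes and macrophages did not exceed 12.3 CPM at 8 h or 13.7 CPM at 0 h. Erythroid and platelet markers summed to at most 0.0451 CPM, with HBB, PPBP and PF4 at 0, and those of epithelium, stroma and endothelium to at most 174 CPM at 8 h and 99.1 CPM at 0 h, led by COL1A1. OCI-LY3 and OCI-LY19, as labelled, were alike at 0 h, with r = 0.98 between their mean log2 CPM over 17327 genes, while the other 5 pairs of lines had 0.86 to 0.90. Whether these 2 labels hold separate lines was not settled, so counts over 4 lines may count 1 background a second time. Added spike-in RNAs made up 0.0435% to 0.0823% of counts in SU-DHL-10 and OCI-LY3, and 0.382% to 0.620% in OCI-LY19 and U-2932. Results that rest on a line or on the scaling are therefore given with and without it.

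The response of the 10 transporters was not uniform, and SLC38A2 alone rose by more than 0.5 on the log2 scale in every line. In OCI-LY3, 8 of 10 rose and 1 fell, where 25.5% of all tested genes were called (13% higher and 12.5% lower). OCI-LY19 had 6 that rose and 3 that fell, where 39.4% were called (21.6% higher and 17.8% lower). U-2932 had 3 that rose and 5 that fell, where 50.9% were called (25.9% higher and 25% lower). SU-DHL-10 had 2 that rose and 3 that fell, where 12.6% were called (6.3% higher and 6.27% lower). The median log2 fold change of the 10 was 0.28 in both OCI-LY3 and OCI-LY19, -0.04 in U-2932 and -0.10 in SU-DHL-10, and that of all tested genes was 0 in each line. A gene was called when edgeR's quasi-likelihood test gave a Benjamini-Hochberg adjusted p under 0.05 over all tested genes, and errors of fold changes are standard errors. Of the 40 pairs of transporter and line, 19 were called higher, 12 lower and 9 not. The 2 libraries at 8 h and the 2 at 0 h did not overlap in 35 of these pairs. Of the 5 that overlapped, 4 were in SU-DHL-10. The share of all tested genes without overlap was not computed, so this and later remarks on overlap are descriptions.

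**Figure D1:**
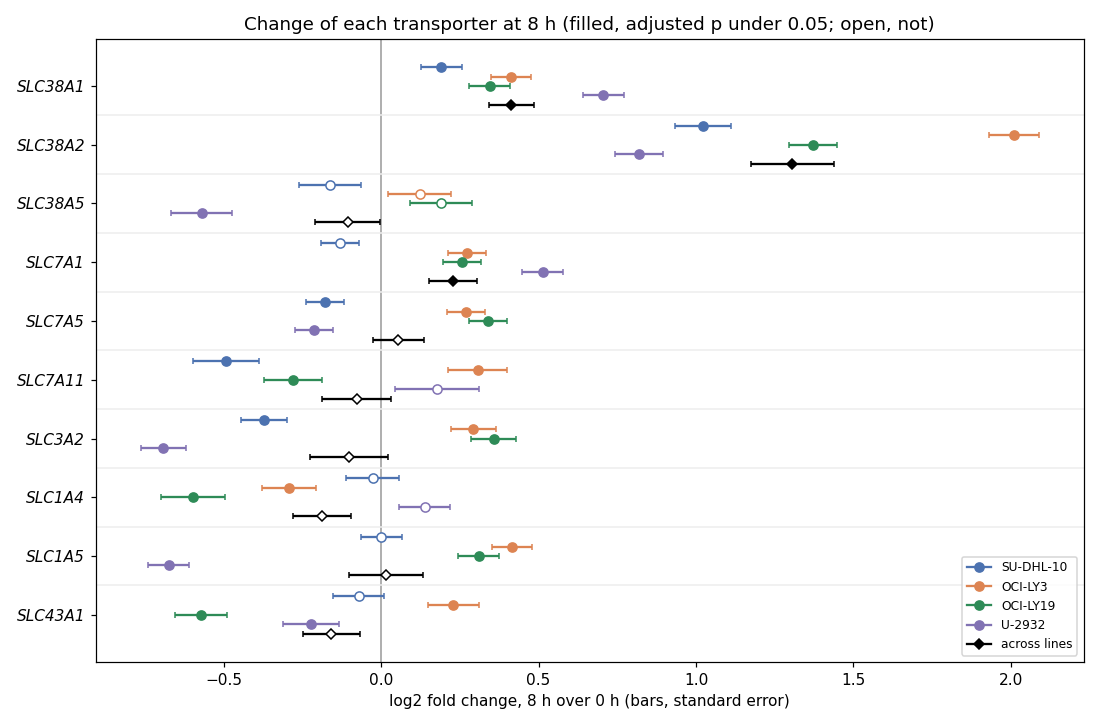
Log2 fold change of each transporter at 8 h over 0 h in each line (coloured circles) and across the 4 lines (black diamonds), with standard errors as bars. Filled symbols had an adjusted p under 0.05. SLC38A2 lies to the right in every line (0.82 to 2.01), while SLC3A2, SLC7A5 and SLC1A5 lie to the right of 0 in OCI-LY3 and OCI-LY19 and to the left in U-2932.

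SLC38A2 is a sodium-coupled carrier of alanine, glutamine and other small neutral amino acids, known for its induction when amino acids are withdrawn. In OCI-LY3 its level was 362 and 360.1 CPM at 8 h, against 90.4 and 89.0 CPM at 0 h. In OCI-LY19 it was 434 and 439.9 CPM at 8 h, against 175 and 163 CPM at 0 h. The lowest library at 8 h was above the highest at 0 h in both lines, and the log2 fold changes were 2.01 ± 0.08 in OCI-LY3 (adjusted p = 1.00e-19) and 1.37 ± 0.08 in OCI-LY19 (adjusted p = 1.70e-16). In U-2932 the level was 242 and 235 CPM at 8 h, against 129 and 141 CPM at 0 h. SU-DHL-10 cells held 53.4 and 48.8 CPM at 8 h, against 28.6 and 21.6 CPM at 0 h. The groups were apart here as well, with log2 fold changes of 0.82 ± 0.08 in U-2932 (adjusted p = 5.26e-11) and 1.02 ± 0.09 in SU-DHL-10 (adjusted p = 4.68e-10). SU-DHL-10, the line with the lowest level at 0 h, stayed lowest at 8 h, and its 8 h level was below the 0 h level of each other line.

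The size of the SLC38A2 change differed between lines. It was larger in OCI-LY3 than in SU-DHL-10 by 0.99 ± 0.12 (adjusted p = 1.15e-07), and larger in OCI-LY19 than in SU-DHL-10 by 0.35 ± 0.12 (adjusted p = 0.0211). U-2932 had a smaller change than OCI-LY3 (difference of -1.19 ± 0.11, adjusted p = 7.24e-11) and than OCI-LY19 (-0.55 ± 0.11, adjusted p = 5.16e-05). U-2932 and SU-DHL-10 differed by -0.20 ± 0.12, which did not pass the test (adjusted p = 0.203). Across the 4 lines SLC38A2 rose by 1.31 ± 0.13 (adjusted p = 1.90e-05). Libraries and not lines are the replicates of that test, so it does not treat the 4 lines as a sample of lines. Differences between lines in the change enter its residual spread together with those between replicates.

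The 250 bases upstream of the RefSeq start of SLC38A2 are shown because this gene was called higher in every line and under every scaling. They lie on the minus strand at chr12:46372774-46373023 (GRCh38.p14), and are written 5′ to 3′ in lower case since none of the searched letters described next occurs in them.
SLC38A2 upstream: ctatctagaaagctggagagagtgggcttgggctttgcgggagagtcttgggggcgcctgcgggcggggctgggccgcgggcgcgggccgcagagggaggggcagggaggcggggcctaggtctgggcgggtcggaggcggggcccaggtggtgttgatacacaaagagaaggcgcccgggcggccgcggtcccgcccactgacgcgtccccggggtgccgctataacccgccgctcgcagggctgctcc

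SLC38A1, the next gene along the chromosome in RefSeq and a carrier of glutamine and other neutral amino acids, rose in the same 4 lines by smaller amounts. In U-2932 its level was 527 and 508 CPM at 8 h, against 304 and 330.4 CPM at 0 h. OCI-LY3 cells held 579 and 535 CPM at 8 h, against 408 and 430.1 CPM at 0 h. The log2 fold changes were 0.71 ± 0.06 in U-2932 (adjusted p = 3.82e-11) and 0.41 ± 0.06 in OCI-LY3 (adjusted p = 5.68e-06), with the 8 h and 0 h libraries apart. In OCI-LY19 it was 471 and 494 CPM at 8 h, against 369.7 and 390.4 CPM at 0 h. SU-DHL-10 had 392 and 389 CPM at 8 h, against 360.1 and 324 CPM at 0 h. These libraries did not overlap either, with 0.34 ± 0.06 in OCI-LY19 (adjusted p = 4.59e-05; 0.11 and not called without TMM scaling) and 0.19 ± 0.06 in SU-DHL-10 (adjusted p = 0.0460). The SU-DHL-10 call was lost without replicate 2 at 0 h (0.12), replicate 1 at 8 h (0.18) or replicate 2 at 8 h (0.20), and with a replicate block (0.19). The order of the lines was thus not that of SLC38A2: the change of SLC38A1 was larger in U-2932 than in OCI-LY3 (by 0.29 ± 0.09, adjusted p = 0.00987), OCI-LY19 (by 0.36 ± 0.09, adjusted p = 0.00128) and SU-DHL-10 (by 0.51 ± 0.09, adjusted p = 2.91e-05). Across lines SLC38A1 rose by 0.41 ± 0.07 (adjusted p = 0.00105).

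SLC38A5, the third member of the family here, couples sodium entry to proton exit and carries glutamine, asparagine, histidine, serine and glycine. U-2932 had the highest level at 0 h and was the only line with a call. Its level was 118.9 and 119.3 CPM at 8 h, against 186 and 167 CPM at 0 h, and it fell by 0.57 ± 0.10 (adjusted p = 5.84e-06), though with libraries scaled to the spike-in RNAs the value was 0.16, below the median of 0.70 that all genes then had in this line. In SU-DHL-10 it stood at 98.3 and 87.7 CPM at 8 h, against 86.3 and 122 CPM at 0 h, and these overlapped. The log2 fold change was -0.16 ± 0.10 in SU-DHL-10 (adjusted p = 0.333), 0.12 ± 0.10 in OCI-LY3 (adjusted p = 0.434) and 0.19 ± 0.10 in OCI-LY19 (adjusted p = 0.130; -0.05 without TMM scaling). Single 0 h libraries decided some of these values. In SU-DHL-10 the value was -0.39 and called without replicate 1 at 0 h and 0.11 without replicate 2, and in OCI-LY19 it was 0.30 and called without replicate 2 at 0 h. The change in U-2932 was lower than that in each other line, with adjusted p from 1.98e-05 against OCI-LY19 to 0.0197 against SU-DHL-10.

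SLC7A1 brings in the cationic amino acids arginine, lysine and ornithine. OCI-LY3 cells had 727 and 701 CPM at 8 h, against 586 and 596 CPM at 0 h, and OCI-LY19 cells had 513 and 507 CPM at 8 h, against 408 and 445 CPM at 0 h. In U-2932, where the level was lowest, it was 127 and 124 CPM at 8 h, against 83.7 and 91.4 CPM at 0 h. In these 3 lines the 8 h libraries were the higher ones without overlap, and SLC7A1 rose by 0.27 ± 0.06 in OCI-LY3 (adjusted p = 6.57e-04), 0.26 ± 0.06 in OCI-LY19 (adjusted p = 7.14e-04; 0.02 and not called without TMM scaling) and 0.51 ± 0.06 in U-2932 (adjusted p = 3.12e-08). SU-DHL-10 had 300.3 and 305 CPM at 8 h, against 336 and 327 CPM at 0 h. The 8 h libraries were the lower ones there, but the log2 fold change of -0.13 ± 0.06 did not pass the test (adjusted p = 0.170) and was 0.01 with spike-in scaling. The change in SU-DHL-10 was smaller than that in OCI-LY3 (by 0.40 ± 0.09, adjusted p = 8.48e-04), OCI-LY19 (by 0.39 ± 0.09, adjusted p = 5.20e-04) and U-2932 (by 0.65 ± 0.09, adjusted p = 4.81e-07). Across lines SLC7A1 was called at 0.23 ± 0.08 (adjusted p = 0.0496), at the edge of the threshold, and the call was lost without OCI-LY3 (0.21), OCI-LY19 (0.22) or U-2932 (0.13), without any 1 of the 12 libraries of these lines (0.19 to 0.24) and with a replicate block (0.23).

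The heavy chain SLC3A2 moved in opposite directions in different lines. In U-2932 its level was 211 and 221 CPM at 8 h, against 359.8 and 338 CPM at 0 h. SU-DHL-10 had 202 and 196 CPM at 8 h, against 244 and 270.1 CPM at 0 h. In both lines every 8 h library was below every 0 h library: SLC3A2 fell by 0.69 ± 0.07 in U-2932 (adjusted p = 5.76e-10; 0.04 with spike-in scaling) and by 0.37 ± 0.07 in SU-DHL-10 (adjusted p = 4.44e-04). OCI-LY3 cells held 360.2 and 399 CPM at 8 h, against 304 and 315 CPM at 0 h, and OCI-LY19 cells held 512 and 498 CPM at 8 h, against 428 and 359.6 CPM at 0 h. There the 8 h libraries were the higher ones, and SLC3A2 rose by 0.29 ± 0.07 in OCI-LY3 (adjusted p = 0.00196; 0.22 and not called without replicate 2 at 8 h) and 0.36 ± 0.07 in OCI-LY19 (adjusted p = 9.70e-05; 0.12 and not called without TMM scaling). The change in U-2932 was lower than in OCI-LY3 by 0.98 ± 0.10 (adjusted p = 9.37e-10), than in OCI-LY19 by 1.05 ± 0.10 (adjusted p = 1.17e-10) and than in SU-DHL-10 by 0.32 ± 0.10 (adjusted p = 0.0137).

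Its light chain SLC7A5, the exchanger that imports leucine and other large neutral amino acids, had the same signs in the 4 lines with smaller values. In OCI-LY19 its level was 683 and 653 CPM at 8 h, against 515 and 540.1 CPM at 0 h, and in OCI-LY3 it was 680.0 and 693 CPM at 8 h, against 544 and 596 CPM at 0 h. The groups were apart in both, and SLC7A5 rose by 0.34 ± 0.06 in OCI-LY19 (adjusted p = 2.31e-05; 0.10 and not called without TMM scaling) and 0.27 ± 0.06 in OCI-LY3 (adjusted p = 8.66e-04; 0.20 and not called without replicate 1 at 0 h). U-2932 cells held 649 and 683 CPM at 8 h, against 785 and 759 CPM at 0 h, and SU-DHL-10 cells held 585 and 545 CPM at 8 h, against 643 and 635 CPM at 0 h. With the 8 h libraries below, SLC7A5 fell by 0.21 ± 0.06 in U-2932 (adjusted p = 0.00347; 0.51 and called higher with spike-in scaling, -0.10 and not called without TMM scaling) and by 0.18 ± 0.06 in SU-DHL-10 (adjusted p = 0.0484). The U-2932 call was lost without replicate 1 at 8 h (-0.17). The SU-DHL-10 call was lost when any 1 of its 4 libraries was left out (-0.23 to -0.13) and with a replicate block (-0.18). The SLC7A5 changes in U-2932 and SU-DHL-10 were not told apart (difference of -0.04 ± 0.09, adjusted p = 0.847), while U-2932 was lower than OCI-LY3 by 0.48 ± 0.09 (adjusted p = 2.18e-05) and than OCI-LY19 by 0.55 ± 0.09 (adjusted p = 1.65e-06). The processed pseudogene SLC7A5P1 had 48 to 162 counts per library, against at least 9441 for SLC7A5, and RefSeq places SLC7A5-AS1 over SLC7A5. No source used here gives the strand setting of the counting, so reads of that antisense gene cannot be told apart from those of SLC7A5.

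SLC7A11, the second light chain, exchanges glutamate for cystine, the precursor of glutathione. Its level in SU-DHL-10 was 33.7 and 27.9 CPM at 8 h, against 40.9 and 45.8 CPM at 0 h, and in OCI-LY19 it was 106 and 111 CPM at 8 h, against 144 and 119.7 CPM at 0 h. The 8 h libraries were the lower ones, and SLC7A11 fell by 0.49 ± 0.10 in SU-DHL-10 (adjusted p = 0.00119) and by 0.28 ± 0.09 in OCI-LY19 (adjusted p = 0.0150). OCI-LY3 cells held 111.9 and 112.5 CPM at 8 h, against 84.0 and 97.6 CPM at 0 h, without overlap, and SLC7A11 rose by 0.31 ± 0.09 (adjusted p = 0.0143). These 3 calls rested on single libraries. The SU-DHL-10 call was lost without replicate 2 at 8 h (-0.36) and the OCI-LY19 call without replicate 1 at 0 h (-0.13) or at 8 h (-0.24). That in OCI-LY3 was lost without replicate 1 at 0 h (0.20) or either replicate at 8 h (0.31 and 0.30). In U-2932, the line with the lowest level, 15.2 and 12.5 CPM at 8 h overlapped with 13.3 and 11.3 CPM at 0 h (0.18 ± 0.13, adjusted p = 0.286; 0.90 and called higher with spike-in scaling). This was 1 of 3 transporters whose change differed between OCI-LY19 and OCI-LY3 (by -0.59 ± 0.13, adjusted p = 0.00178). The antisense gene SLC7A11-AS1, which RefSeq places over SLC7A11, had 0 to 34 counts per library.

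The other light chains of SLC3A2 followed neither pattern in every line. SLC7A6, which exchanges cationic for neutral amino acids, rose in U-2932 (0.84 ± 0.09, adjusted p = 1.48e-09), fell in OCI-LY19 (-0.32 ± 0.09, adjusted p = 0.00664; -0.33 and not called with spike-in scaling) and stood at 0.04 ± 0.10 in OCI-LY3 and 0.04 ± 0.09 in SU-DHL-10. SLC7A7, of the same activity, fell in OCI-LY3 (-1.27 ± 0.26), OCI-LY19 (-0.99 ± 0.23) and U-2932 (-0.70 ± 0.17; 0.02 with spike-in scaling), where its level was highest at 10.5 ± 0.787 CPM at 8 h, against 17.0 ± 0.906 CPM at 0 h (SD, n = 2). SLC7A8, at an average of 0.203 CPM over the libraries, was tested and called in no line, and SLC7A10, at 0.00276 CPM, was not tested.

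Upstream sequences of SLC3A2 and SLC7A5 are shown because these partners moved together in sign. The SLC3A2 bases are from the plus strand at chr11:62881449-62881698, in the RefSeq promoter of SLC3A2 that held the searched letters, and the SLC7A5 bases are from the minus strand at chr16:87869508-87869757 (both GRCh38.p14, 5′ to 3′). Capitals mark TGACNNNGC, the core of the antioxidant response element, in SLC3A2 and CACGTG, the E-box letters, in SLC7A5. Matches not wholly within the shown bases are not marked. These are TGACNNNGC in SLC7A5, which reaches past them, and, described next, TGATGNAA in SLC3A2, which lies after the gene start.
SLC3A2 upstream: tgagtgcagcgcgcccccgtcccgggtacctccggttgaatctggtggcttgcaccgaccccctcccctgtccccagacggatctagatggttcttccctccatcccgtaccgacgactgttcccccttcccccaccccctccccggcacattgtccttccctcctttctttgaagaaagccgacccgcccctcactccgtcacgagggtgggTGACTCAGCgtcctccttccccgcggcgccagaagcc
SLC7A5 upstream: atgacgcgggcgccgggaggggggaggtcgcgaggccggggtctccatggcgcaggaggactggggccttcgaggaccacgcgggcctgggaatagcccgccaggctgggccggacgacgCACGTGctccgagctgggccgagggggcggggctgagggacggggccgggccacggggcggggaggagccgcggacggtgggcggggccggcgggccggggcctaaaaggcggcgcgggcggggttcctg

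Letters of the C/EBP-ATF element, TGATGNAA, through which ATF4 is known to act, were searched on both strands in the 300 bases of each RefSeq promoter (250 before the gene start and 50 after). RefSeq's table held 16 promoters for 9 of the 10 genes, all but SLC7A11. TGATGNAA occurred in promoters of 5 of these 9 genes, in 1 promoter each. By promoter this was 5 of the 16, against 3.62% of all 35116 promoters. The 30 bases around each match are shown on the strand of the gene, 5′ to 3′, with the match in capitals, written as its reverse complement for SLC3A2 and SLC1A4, where it is on the other strand. They lie at chr12:46266502-46266531 (minus) for SLC38A1, chr13:29595663-29595692 (minus) for SLC7A1, chr11:62881719-62881748 (plus) for SLC3A2, chr2:64989381-64989410 (plus) for SLC1A4 and chr19:46784893-46784922 (minus) for SLC1A5.
SLC38A1: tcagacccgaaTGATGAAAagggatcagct
SLC7A1: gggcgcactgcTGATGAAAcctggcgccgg
SLC3A2: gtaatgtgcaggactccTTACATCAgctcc
SLC1A4: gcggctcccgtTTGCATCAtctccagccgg
SLC1A5: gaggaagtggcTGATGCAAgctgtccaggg
TGACNNNGC occurred in promoters of 4 of the 9 genes (SLC7A1, SLC7A5, SLC3A2 and SLC1A5). By promoter this was 4 of the 16, against 13.3% of all promoters. CACGTG occurred in promoters of 4 genes (SLC38A5, SLC7A5, SLC1A5 and SLC43A1), in 4 of the 16 promoters, against 7.26% of all promoters. The genes with TGATGNAA included SLC38A1, which rose in every line, and SLC1A4, which rose in none with TMM scaling. The matches are descriptions of these windows and say nothing of what binds there.

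SLC1A5 exchanges glutamine and other neutral amino acids with sodium, and its values had the widest spread between lines after SLC38A2. In U-2932 its level was 161 and 157 CPM at 8 h, against 265 and 243 CPM at 0 h. It fell there by 0.67 ± 0.06 (adjusted p = 1.04e-10), with no overlap, while with spike-in scaling the value was 0.05, below that line's all-gene median of 0.70. OCI-LY3 cells held 279.7 and 281 CPM at 8 h, against 209.9 and 210.2 CPM at 0 h, and OCI-LY19 cells held 224 and 221 CPM at 8 h, against 178 and 181 CPM at 0 h. Replicates of these 4 groups lay within a few CPM of each other, and SLC1A5 rose by 0.42 ± 0.06 in OCI-LY3 (adjusted p = 4.90e-06) and 0.31 ± 0.06 in OCI-LY19 (adjusted p = 1.93e-04; 0.07 and not called without TMM scaling). SU-DHL-10 had 211 and 202 CPM at 8 h, against 219 and 194 CPM at 0 h, which overlapped, and its adjusted p was 1. The change in U-2932 was lower than in OCI-LY3 by 1.09 ± 0.09 (adjusted p = 1.03e-11), than in OCI-LY19 by 0.98 ± 0.09 (adjusted p = 5.58e-11) and than in SU-DHL-10 by 0.68 ± 0.09 (adjusted p = 3.55e-07). Without U-2932, SLC1A5 was called higher across the other 3 lines (0.24, adjusted p = 0.0238), against 0.02 ± 0.12 across all 4 (adjusted p = 0.946).

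SLC1A4, the related exchanger of alanine, serine, cysteine and threonine, ran against SLC1A5 in OCI-LY3 and OCI-LY19. Its level in OCI-LY19 was 15.0 and 18.1 CPM at 8 h, against 23.9 and 26.1 CPM at 0 h, and in OCI-LY3 it was 59.9 and 59.5 CPM at 8 h, against 76.6 and 69.5 CPM at 0 h. The 8 h libraries were below in both, and SLC1A4 fell by 0.60 ± 0.10 in OCI-LY19 (adjusted p = 1.34e-05) and by 0.29 ± 0.09 in OCI-LY3 (adjusted p = 0.0102). The OCI-LY3 call was lost without replicate 1 at 0 h (-0.22) or either replicate at 8 h (-0.30 and -0.28). U-2932 cells held 121 and 127 CPM at 8 h, against 115 and 110.3 CPM at 0 h (0.14 ± 0.08, adjusted p = 0.161; 0.86 and called higher with spike-in scaling). SU-DHL-10 had 83.3 and 72.3 CPM at 8 h, against 75.3 and 83.3 CPM at 0 h, which overlapped (-0.03 ± 0.08, adjusted p = 0.932; 0.10 with spike-in scaling and 0.04 without TMM scaling). The change in U-2932 was higher than in OCI-LY19 by 0.73 ± 0.13 (adjusted p = 1.56e-05) and than in OCI-LY3 by 0.43 ± 0.12 (adjusted p = 0.00365).

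SLC43A1, which lets large neutral amino acids cross by facilitated diffusion, fell most in OCI-LY19. Its level there was 36.5 and 38.7 CPM at 8 h, against 53.6 and 58.2 CPM at 0 h, without overlap (-0.57 ± 0.08, adjusted p = 8.18e-07). In U-2932 it was 27.2 and 26.7 CPM at 8 h, against 32.1 and 30.8 CPM at 0 h (-0.22 ± 0.09, adjusted p = 0.0377; 0.50 and called higher with spike-in scaling), a call that was lost without any 1 of the 4 U-2932 libraries (-0.25 to -0.19) and with a replicate block (-0.22). OCI-LY3 cells held 61.7 and 63.2 CPM at 8 h, against 55.0 and 51.5 CPM at 0 h (0.23 ± 0.08, adjusted p = 0.0362), a call that was lost when any 1 of the 4 OCI-LY3 libraries was left out (0.19 to 0.28) and with a replicate block (0.23). In SU-DHL-10, 47.9 and 48.4 CPM at 8 h overlapped with 48.4 and 52.8 CPM at 0 h (-0.07 ± 0.08, adjusted p = 0.674; 0.07 with spike-in scaling). The OCI-LY19 change was lower than that in OCI-LY3 by 0.80 ± 0.12 (adjusted p = 7.18e-06), the widest difference between these lines among the 10.

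**Figure D2:**
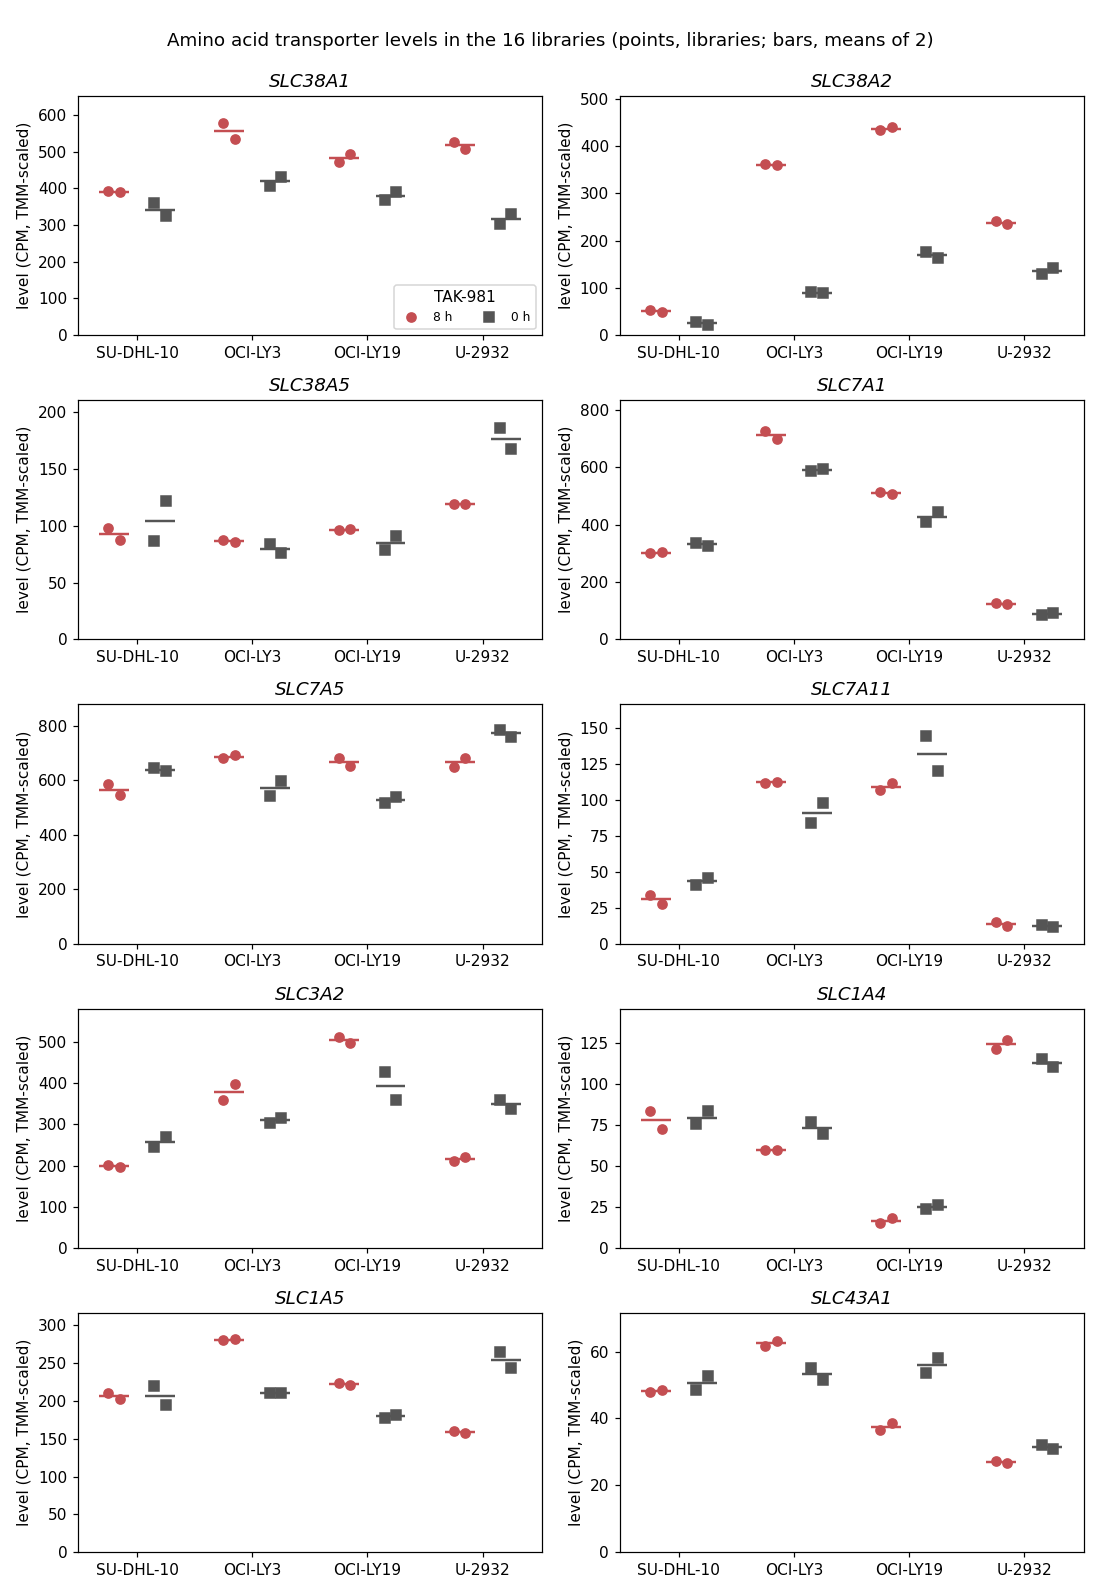
Level of each transporter in every library (points; CPM with TMM-scaled library sizes, linear axes from 0 that differ between panels), with 8 h in red to the left of 0 h in grey for each line, and the mean of the 2 libraries as a bar. The SLC38A2 panel shows the 8 h points above the 0 h points in every line, and the SLC3A2 and SLC1A5 panels show them above in OCI-LY3 and OCI-LY19 and below in U-2932.

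Across the 4 lines together, 3 of the 10 rose (SLC38A1, SLC38A2 and SLC7A1) and 7 were not called, where 18.1% of all tested genes were called (10% higher and 8.09% lower). The mean of the 4 line changes, from the model with a separate change for each line, was called for 6 of the 10, where 41% of all genes were called. The additional 3 were SLC3A2 (-0.10), SLC1A4 (-0.19) and SLC43A1 (-0.16), all lower. With spike-in scaling SLC7A5 (0.33) and SLC1A5 (0.29) were called higher across lines as well, and without U-2932 SLC1A4 was called lower (-0.29). All 10 differed between lines in their change by the joint test of the 4 changes, where 53.5% of all tested genes did. By pairs of lines, U-2932 differed from OCI-LY19 in 10 of 10 (46.2% of all genes), from OCI-LY3 in 9 (38%) and from SU-DHL-10 in 6 (32.8%). SU-DHL-10 differed from OCI-LY19 in 7 (29.8%) and from OCI-LY3 in 6 (14.2%). OCI-LY19 differed from OCI-LY3 in 3 (15.4%): SLC38A2, SLC7A11 and SLC43A1, each with the lower change in OCI-LY19.

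At 0 h the levels of all 10 differed between the 4 lines, as did those of 87.3% of all tested genes. By pairs of lines, U-2932 differed from OCI-LY19 in 10 of 10 (70.6% of all genes), from OCI-LY3 in 10 (69.3%) and from SU-DHL-10 in 9 (68.7%). OCI-LY19 differed from SU-DHL-10 in 9 (63.8%) and from OCI-LY3 in 6 (39.4%), and OCI-LY3 differed from SU-DHL-10 in 7 (57.2%). SLC7A11 had the widest span, with 132 ± 17.5 CPM in OCI-LY19 and 12.3 ± 1.38 CPM in U-2932 (SD, n = 2), a ratio of 10.7. The order was OCI-LY19, OCI-LY3, SU-DHL-10 and U-2932, and each neighbour differed from the next. SLC7A1 spanned 6.75-fold, with 591 ± 6.87 CPM in OCI-LY3, 87.6 ± 5.44 CPM in U-2932 and OCI-LY19 and SU-DHL-10 between, and every neighbour differed. SLC38A2 spanned 6.72-fold in the order OCI-LY19, U-2932, OCI-LY3 and SU-DHL-10, again with every neighbour apart, and 169 ± 8.59 CPM in OCI-LY19 stood against 25.1 ± 4.97 CPM in SU-DHL-10. SLC1A4 spanned 4.50-fold, with 113 ± 3.19 CPM in U-2932 and 25.0 ± 1.62 CPM in OCI-LY19, and SU-DHL-10 and OCI-LY3 between them did not differ (adjusted p = 0.248).

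The other 6 spanned 1.32-fold to 2.21-fold at 0 h. SLC38A5 was highest in U-2932 and lowest in OCI-LY3, which OCI-LY19 did not differ from (adjusted p = 0.562). SLC43A1 was lowest in U-2932, while OCI-LY19, OCI-LY3 and SU-DHL-10 did not differ from neighbour to neighbour (adjusted p = 0.551 and 0.468). SLC3A2 had the order OCI-LY19, U-2932, OCI-LY3 and SU-DHL-10 with each neighbour apart (adjusted p of 0.0285, 0.0333 and 0.00164), but the libraries of OCI-LY19 and U-2932 overlapped. SLC7A5 had U-2932 above SU-DHL-10, OCI-LY3 and OCI-LY19, of which the last pair did not differ (adjusted p = 0.154). SLC1A5 was highest in U-2932 and lowest in OCI-LY19, with OCI-LY3 and SU-DHL-10 not told apart between them (adjusted p = 0.778). SLC38A1 was highest in OCI-LY3 and lowest in U-2932, and among neighbours in this order only the middle pair, OCI-LY19 and SU-DHL-10, differed (adjusted p = 0.0402). Over all 30 neighbouring pairs, 22 differed and 8 did not. By pair of lines, 39.4% to 70.6% of all tested genes differed at 0 h. The share for neighbours in rank was not computed over all genes, so this count is a description.

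The sign of 5 of the U-2932 changes depended on the scaling. With libraries scaled to the spike-in RNAs in place of TMM, the median change of all tested genes was 0.70 in U-2932, 0.00 in OCI-LY19, 0.20 in OCI-LY3 and 0.11 in SU-DHL-10. In U-2932 the 5 transporters that fell then stood at 0.04 (SLC3A2), 0.05 (SLC1A5), 0.16 (SLC38A5), 0.50 (SLC43A1) and 0.51 (SLC7A5), each below that median. Of the 10, 7 were called higher, where 9778 of all 17327 tested genes were called, 92.5% of them higher. Without TMM, by total counts alone, the all-gene median was -0.20 in OCI-LY19, and the number of transporters called higher there was 1 in place of 6. Of all tested genes, 7213 were then called there, 26.6% of them higher. Other calls lost with spike-in scaling were SLC38A1 (0.34), SLC7A5 (-0.04), SLC7A11 (-0.37) and SLC3A2 (-0.24) in SU-DHL-10, SLC1A4 (-0.05) in OCI-LY3, and 6 in OCI-LY19: SLC38A1 (0.33), SLC7A1 (0.24), SLC7A5 (0.33), SLC7A11 (-0.28), SLC3A2 (0.35) and SLC1A5 (0.30). Of all genes called, 92.5% were higher in U-2932 with spike-in scaling and 51.0% with TMM, and the shares were 81.3% and 51.1% in OCI-LY3, 87.1% and 50.1% in SU-DHL-10, and 93.3% and 55.4% across lines. Without TMM the share was 26.6% in OCI-LY19, against 54.9% with it, and 70.7% in SU-DHL-10. SLC38A2 was called higher in every line under each of these scalings. No source used here says whether equal amounts of spike-in RNA were added per cell. In bulk RNA, a change in cell number and a change in RNA per cell cannot be told apart.

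**Figure D3:**
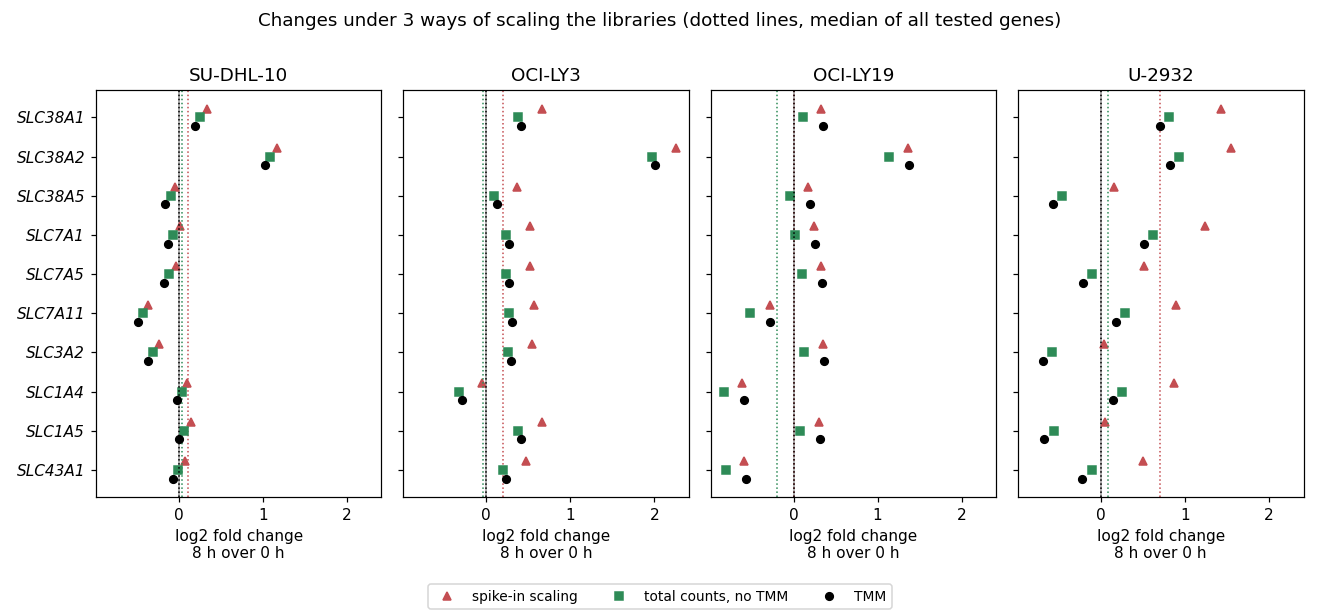
Log2 fold change of each transporter at 8 h over 0 h in each line under spike-in scaling (red triangles), total counts without TMM (green squares) and TMM (black circles), with dotted lines at the median of all tested genes under each. In U-2932 the red points lie to the right of the black ones by about the shift of the all-gene median (0.70), and in OCI-LY19 the green points lie to the left (median of -0.20).

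Over the 16 libraries, the level of SLC7A1 followed that of SLC7A11 (Pearson r = 0.93 of log2 CPM) and ran against that of SLC38A5 (r = -0.87). SLC38A1 and SLC38A2 had r = 0.69, and the partners SLC3A2 and SLC7A5 had r = 0.19. Among 8696 named genes whose mean level was 5 CPM or more, those most like SLC38A2 were STAM (r = 0.97), CHD2 (0.96) and CLDN12 (0.96). For SLC3A2 they were EIF1 (0.97), STRN4 (0.95) and PDRG1 (0.95), for SLC7A5 UBE2S (0.93), SIAH2 (0.93) and DNAJB11 (0.92), and for SLC7A11 TBP, TMEM181 and KLHL12 (each 0.98). These values describe 16 libraries that share 4 lines, 2 times and their depth and scaling, and are mainly differences between lines.

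Of 26 other surface amino acid transporters, 11 were tested. Across lines 2 rose and 2 fell, where 10% of all tested genes rose and 8.09% fell. SLC6A6, the taurine transporter, rose by 0.41 ± 0.10 (adjusted p = 0.0104), with 0.92 ± 0.08 in U-2932, 0.51 ± 0.07 in OCI-LY19 and 0.22 ± 0.07 in OCI-LY3 (0.19 and not called without TMM) called and 0.01 ± 0.07 in SU-DHL-10 not. SLC1A1, the carrier of glutamate, aspartate and cysteine, fell by 0.92 ± 0.15 (adjusted p = 6.20e-04). Its level in SU-DHL-10 was 78.5 ± 1.91 CPM at 8 h, against 110.2 ± 6.19 CPM at 0 h, and in OCI-LY3 10.1 ± 1.57 CPM at 8 h, against 24.9 ± 0.441 CPM at 0 h (SD, n = 2), and it was called in both and in OCI-LY19, though not in SU-DHL-10 with spike-in scaling (-0.35). SLC7A7 fell by 0.85 ± 0.14 (adjusted p = 6.65e-04). By line, 8 of the 11 were called in OCI-LY19 (39.4% of all tested genes) and 6 in U-2932 (50.9%). In OCI-LY3 it was 4 (25.5%) and in SU-DHL-10 1 (12.6%).

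Of 9 tested transporters of the lysosome membrane, 1 rose and 1 fell across lines, where 10% of all tested genes rose and 8.09% fell. SLC36A1, which lets protons and small amino acids out of the lysosome, rose by 0.80 ± 0.09 (adjusted p = 4.05e-05) and was called higher in each line, also with spike-in scaling and without TMM. Its mean level was 32.4 ± 3.75 CPM at 8 h, against 19.7 ± 1.22 CPM at 0 h, in OCI-LY3 and 18.9 ± 0.960 CPM at 8 h, against 8.60 ± 0.180 CPM at 0 h, in U-2932 (SD, n = 2). SLC15A3, a carrier of histidine and small peptides, fell by 0.81 ± 0.14 (adjusted p = 9.72e-04).

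The ATF4 and amino acid response list had 24 tested genes, none of them among the 10 transporters. With TMM, shares of all tested genes called higher and lower were 13% and 12.5% in OCI-LY3, and 21.6% and 17.8% in OCI-LY19. They were 25.9% and 25% in U-2932, and 6.3% and 6.27% in SU-DHL-10. With spike-in scaling, 9778 of all 17327 tested genes were called in U-2932 (92.5% of them higher). In OCI-LY3 3554 were then called (81.3% higher) and in OCI-LY19 4206 (50.4% higher). Without TMM, 8794 were called in U-2932 (59.7% higher) and 7213 in OCI-LY19 (26.6% higher). Of the 24 listed genes in OCI-LY3, 13 rose and 4 fell (with spike-in scaling 14 and 0). OCI-LY19 had 10 that rose and 3 that fell (6 and 0 with spike-in scaling, 6 and 7 without TMM). U-2932 had 2 that rose and 12 that fell (13 and 2 with spike-in scaling, 6 and 9 without TMM), and SU-DHL-10 had 3 and 2. The medians were 0.36, 0.30, -0.15 and -0.06 in that order of lines, and with spike-in scaling 0.61, 0.29, 0.58 and 0.08. Without TMM the OCI-LY19 median was 0.06. ATF4 itself was at 749 ± 25.0 CPM at 8 h, against 499 ± 5.71 CPM at 0 h, in OCI-LY3 and at 439 ± 4.90 CPM at 8 h, against 638 ± 14.8 CPM at 0 h, in U-2932 (SD, n = 2). It rose in OCI-LY3 (0.59 ± 0.07) and OCI-LY19 (0.60 ± 0.07) and fell in U-2932 (-0.54 ± 0.07; 0.18 and not called with spike-in scaling), and it stood at -0.19 ± 0.07 in SU-DHL-10 (adjusted p = 0.0508). DDIT3, a stress transcription factor, rose in OCI-LY3 (0.63 ± 0.20) and OCI-LY19 (0.45 ± 0.14; 0.21 without TMM and 0.45 with spike-in scaling, both not called) and fell in SU-DHL-10 (-1.17 ± 0.19) and U-2932 (-2.22 ± 0.17), the falls also with spike-in scaling. CHAC1, which breaks down glutathione, rose in OCI-LY3 (2.30 ± 0.19) and OCI-LY19 (0.99 ± 0.17) and fell in U-2932 (-0.92 ± 0.20; -0.19 and not called with spike-in scaling). SESN2, a leucine-binding inhibitor of mTORC1 signalling, rose in OCI-LY3 (1.03 ± 0.09) and OCI-LY19 (0.67 ± 0.09) and fell in U-2932 (-0.29 ± 0.11; 0.44 and called higher with spike-in scaling). ASNS, asparagine synthetase, was called in OCI-LY3 alone (1.69 ± 0.35), at 4.51 ± 0.686 CPM at 8 h, against 1.40 ± 0.00962 CPM at 0 h. TRIB3 was at 0 to 0.0561 CPM in every OCI-LY3 and OCI-LY19 library and fell in U-2932 (-0.82 ± 0.10; -0.10 and not called with spike-in scaling). With TMM scaling, SLC3A2, SLC7A5 and SLC1A5 were called in the direction of ATF4 in OCI-LY3, OCI-LY19 and U-2932. SLC38A5 had the same signs but was called in U-2932 alone. SLC38A2, SLC38A1 and SLC7A1 were called higher in U-2932, where ATF4 was called lower. Where ATF4 was called higher, SLC1A4 was called lower in OCI-LY3 (-0.29) and OCI-LY19 (-0.60). So were SLC7A11 (-0.28) and SLC43A1 (-0.57) in OCI-LY19. Whether ATF4 had a part in any of these changes was not tested.

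**Figure D4:**
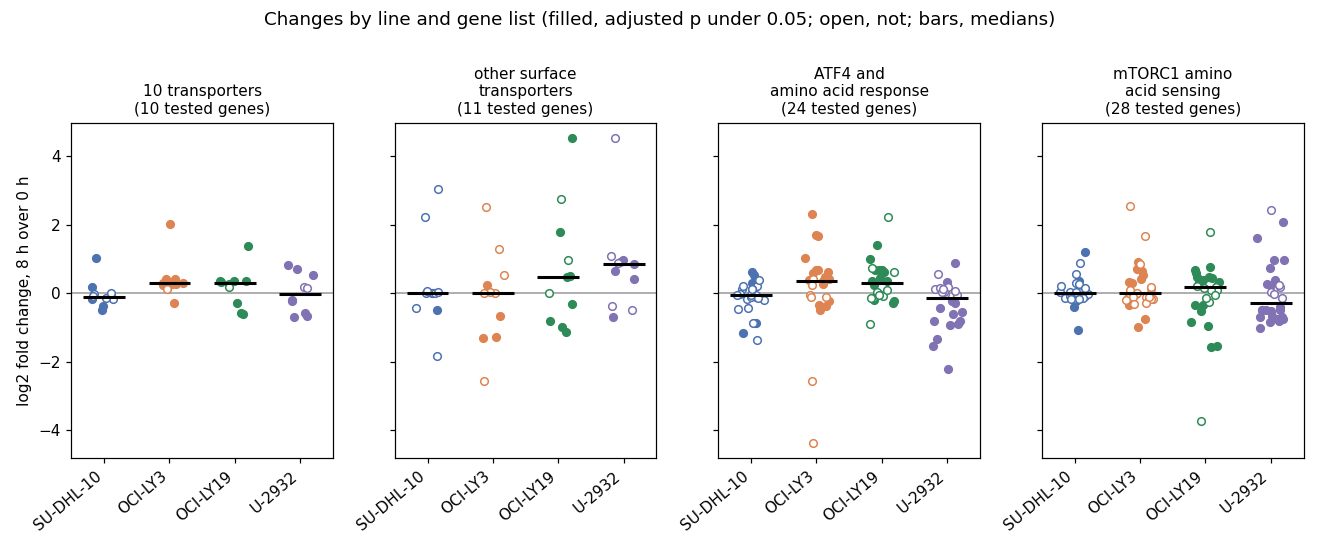
Log2 fold change at 8 h over 0 h by line for the 10 transporters, the other surface transporters, the ATF4 and amino acid response genes and the mTORC1 amino acid sensing genes (points, tested genes; filled, adjusted p under 0.05; black bars, medians). The ATF4 panel has medians of 0.36 in OCI-LY3 and 0.30 in OCI-LY19, against -0.15 in U-2932 and -0.06 in SU-DHL-10, which were 0.58 and 0.08 with spike-in scaling.

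Genes that use the imported amino acids moved in part. Across lines, where 10% of all tested genes rose, 3 of 13 tested genes of glutamine and asparagine use did. Among them GFPT1 and PPAT, which use glutamine for hexosamine and purine synthesis, rose by 0.38 ± 0.06 and 0.36 ± 0.07. GLUL, glutamine synthetase, stood at 98.0 ± 2.22 CPM at 8 h, against 77.2 ± 1.29 CPM at 0 h, in U-2932 (0.34 ± 0.11, adjusted p = 0.00906), and no library of the other lines exceeded 0.223 CPM. Of 12 genes of cystine and glutathione, NFE2L2, the regulator of the antioxidant response, rose across lines (0.54 ± 0.09, adjusted p = 6.64e-04) and GGT1 fell (-0.51 ± 0.16, adjusted p = 0.0399; -0.29 and not called with spike-in scaling). GCLM, a subunit of the enzyme that starts glutathione synthesis, rose in U-2932 (0.98 ± 0.11) and fell in OCI-LY3 (-0.31 ± 0.10) and OCI-LY19 (-0.35 ± 0.09), both not called with spike-in scaling. Of 7 tested genes of branched-chain amino acid breakdown, PPM1K rose (0.40 ± 0.12; 0.37 and not called without TMM) and BCAT2 fell (-0.37 ± 0.09; -0.09 and not called with spike-in scaling) across lines. Of 11 genes of arginine and polyamine use, 8 fell and 2 rose in U-2932, where 25% of all tested genes fell and 25.9% rose. The median of the 11 there was -0.41 (0.32 with spike-in scaling, where 5 rose). With spike-in scaling 9778 of all 17327 tested genes were called in U-2932, 92.5% of them higher. In OCI-LY19, 1 of the 11 fell and 5 rose (1 and 3 with spike-in scaling or without TMM). Of all tested genes, 17.8% fell and 21.6% rose in OCI-LY19 with TMM. In that line 4206 were called with spike-in scaling (50.4% of them higher) and 7213 without TMM (26.6%).

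Genes that sense amino acids for mTORC1 had 4 that rose and 3 that fell across lines among 28. Of all tested genes, 10% rose and 8.09% fell across lines. The counts among the 28 were 9 and 1 with spike-in scaling, and 4 and 4 without TMM. All tested genes had 4281 calls across lines with spike-in scaling (93.3% higher) and 2774 without TMM (47.7% higher). NPRL3, a subunit of the GATOR1 complex that holds mTORC1 back, fell by 1.16 ± 0.09 (adjusted p = 1.87e-06) and was called lower in each line, though not in U-2932 with spike-in scaling (-0.28). Its level in OCI-LY19 was 18.0 ± 1.38 CPM at 8 h, against 52.7 ± 9.68 CPM at 0 h (SD, n = 2). MIOS and WDR59, of the GATOR2 complex that opposes GATOR1, rose by 0.30 ± 0.06 and 0.25 ± 0.06, and MLST8, a subunit of mTORC1, fell by 0.26 ± 0.06 (0.01 and not called with spike-in scaling). In U-2932, 8 of the 28 rose and 14 fell, where 25.9% of all tested genes rose and 25% fell. The median of the 28 was -0.28 there, and 0.44 with spike-in scaling, with 13 that rose. With that scaling 9778 of all 17327 tested genes were called in U-2932, 92.5% of them higher. In the list of MYC and transporter turnover, MYC, which is known to raise several of these carriers, fell across lines (-0.50 ± 0.15, adjusted p = 0.0303; not called with spike-in scaling or without TMM). It fell in OCI-LY19 (-1.01 ± 0.08), OCI-LY3 (-0.90 ± 0.08) and U-2932 (-0.44 ± 0.07; 0.29 and not called with spike-in scaling) and rose in SU-DHL-10 (0.37 ± 0.07). TXNIP, which binds thioredoxin and restrains glucose uptake, fell by 0.80 ± 0.11 and was called lower in each line, though with spike-in scaling it was not called in SU-DHL-10 (-0.38) and was called higher in U-2932 (0.36).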

How the data were processed

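The authors deposited raw read counts per gene for 16 RNA libraries, and 92 spike-in RNAs stand beside the genes. Per the labels' protocols, poly(A) RNA was selected, PCR duplicates were removed and cDNA was made. The submitters' processing notes name Trimmomatic, DESeq2, Bowtie2, MACS2, bedtools and HOMER, with the builds GRCh38 and hg19, without saying which step each served. The counting program and annotation are not given in the sources used here, and 8 ATAC-seq samples were not analysed here. Of 58676 Ensembl IDs, 58207 were matched to a symbol.

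Low counts were removed by filterByExpr over the 8 groups. The rest were scaled by TMM and fitted by quasi-likelihood by edgeR 4.0.16 in R 4.3.3 (with limma 3.58.1), using a mean for each group (8 residual degrees of freedom) or, across lines, with line and time as terms (11 residual degrees of freedom). Adjustment was by Benjamini-Hochberg over 17327 genes at 0.05. A standard error is the size of the log2 fold change over the root of F. The median biological coefficient of variation was 8.54%. Replicates differed by more than counting noise (chi-square per degree of freedom of 2.64 to 12.5), so none was counted as a duplicate. The fits were tested on simulated data with known changes, and the outcome is not reported here. Changes as small as many of those given above were not among the simulated ones. Alternatives were DESeq2 1.42.0, other scalings and filters, a replicate block, single lines and left-out lines or libraries.

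The 10 transporters and the other gene lists were chosen with earlier results of these data known. All 10 are named. Of other lists, up to 4 genes each are named by the smallest p across lines among those at a mean of 5 CPM or more, together with ATF4, DDIT3, ASNS, TRIB3, CHAC1, SESN2, NFE2L2, MYC, GLUL, GCLM and the light chains of SLC3A2; some genes that this rule names are not reported here. Likeness used the Pearson correlation of log2(CPM + 0.5). The tests between pairs of lines' changes, and the lists under other scalings, were added after the data were seen. Promoter sequences are RefSeq's, GRCh38.p14.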

Additional observations from a re-analysis of the deposited data

Results flagged for a closer look

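The change at 8 h differed between the 4 lines for each of the 10 transporters, by the joint test of the 4 line changes (edgeR's quasi-likelihood test, 3 degrees of freedom, Benjamini-Hochberg adjustment over all tested genes, of which 53.5% passed). The adjusted p was 9.28e-12 for SLC1A5 and 3.54e-11 for SLC3A2, both called lower in U-2932 and higher in OCI-LY3 and OCI-LY19. SLC38A2, called higher in all 4 lines, had 1.86e-10, and its change ran from 0.82 ± 0.08 in U-2932 to 2.01 ± 0.08 in OCI-LY3. SLC7A5 had 2.35e-07 and SLC7A1 1.89e-06. For SLC43A1 it was 5.76e-06 and for SLC7A11 2.61e-05. SLC38A5 had 4.77e-05, SLC1A4 6.31e-05 and SLC38A1 1.22e-04. The groups had 2 libraries each, too few for a test of single outlying libraries.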

How the results depend on the processing

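Over 904 alternative values, 112 counts of called transporters stayed within 1.5 times the reported count and 12 did not. Of the single transporters' values, 649 kept direction and side of the threshold, 77 kept direction but lost the call, 12 gained it and 42 changed sign. SLC38A2 kept its call in all 78 of its alternatives, at 1.07 to 1.58 across lines, 1.13 to 1.43 in OCI-LY19, 1.97 to 2.26 in OCI-LY3, 0.76 to 1.54 in U-2932 and 0.84 to 1.24 in SU-DHL-10. Counts moved as follows, and the cause was not tested. OCI-LY19 had 4 of 10 called without TMM and 3 with spike-in scaling, against 9. SU-DHL-10 had 1 called with spike-in scaling, 3 with a replicate block and 3 with its own libraries alone, against 5. Across lines 5 were called with spike-in scaling and 6 by the mean of line contrasts, against 3. Leaving out each library in turn, a lone sample being assumed to vary like the other groups, gave 5 to 8 in OCI-LY3, 2 to 5 in SU-DHL-10, 8 to 10 in OCI-LY19, 6 to 7 in U-2932 and 2 to 3 across lines, and 10 for the differences between lines. The fewest came without replicate 2 of SU-DHL-10 at 8 h (2), and without replicate 1 at 0 h or replicate 2 at 8 h of OCI-LY3 (5 each).

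Signs changed for these values. SLC1A5 in SU-DHL-10 was -0.0064 with DESeq2 and -0.0063 with RLE scaling and with no filter. Without TMM, SLC1A4 was 0.0353 in SU-DHL-10, SLC38A5 -0.0454 in OCI-LY19 and SLC1A5 -0.0109 across lines. With spike-in scaling, SU-DHL-10 had 0.0115 for SLC7A1, 0.101 for SLC1A4 and 0.0658 for SLC43A1. U-2932 had 0.16 for SLC38A5, 0.51 for SLC7A5, 0.0364 for SLC3A2, 0.0505 for SLC1A5 and 0.50 for SLC43A1. The test across lines then had 0.16 for SLC38A5, 0.19 for SLC7A11, 0.18 for SLC3A2, 0.0808 for SLC1A4 and 0.12 for SLC43A1. Lines were left out for the test across lines alone, and some signs changed there. The values were 0.0607 for SLC7A11 without SU-DHL-10, -0.0187 for SLC7A5 and -0.12 for SLC1A5 without OCI-LY3, -0.0348 for SLC7A5, 8e-04 for SLC7A11 and -0.0786 for SLC1A5 without OCI-LY19, and 0.0499 for SLC38A5 and 0.0944 for SLC3A2 without U-2932. SLC43A1 was 0.0815 in the lines with a low spike-in share alone, and SLC1A5 -0.20 in those with a high share alone. Leaving out single libraries gave ranges of -0.39 to 0.11 for SLC38A5, -0.13 to 0.0721 for SLC1A4 and -0.0805 to 0.0895 for SLC1A5 in SU-DHL-10, and -0.0233 to 0.093 for SLC1A5 across lines.

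Same-numbered replicates did not deviate together (correlations of 0.0401 in OCI-LY3, -0.0221 in OCI-LY19, -0.0247 in U-2932 and 0.0154 in SU-DHL-10). With 2 libraries per group, these correlations cannot show whether same-numbered samples were paired. With the replicate block 3 of 10 were called in SU-DHL-10, 9 in OCI-LY19, 8 in OCI-LY3, 7 in U-2932 and 2 across lines. Over all genes, calls across lines were 1235 with the block, 7105 by the mean of line contrasts, 1446 without OCI-LY3, 1933 in the low-share and 1842 in the high-share lines, against 3142. In SU-DHL-10 they were 765 with spike-in scaling, 1431 with its libraries alone and 972 and 1006 without replicate 1 or 2 at 8 h, against 2179. In OCI-LY19 they were 4206 with spike-in scaling, against 6821. Depth limits the transporters little, since their lowest count was 211, while 2 libraries per group limit the estimate of spread.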
